A study of Mus musculus with 4 samples.

Results

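The 10 genes described here encode enzymes of glycolysis, the pathway that splits glucose into pyruvate and, with lactate dehydrogenase, ends in lactate. They are the hexokinases Hk1, Hk2 and Hk3, the isomerase Gpi1, the phosphofructokinase Pfkl, the aldolase Aldoa, the kinase Pgk1, the mutase Pgam1, the enolase Eno1 and the lactate dehydrogenase subunit Ldha. They were picked by symbol, as 10 of the 32285 genes of the count matrix. The rule that picks them uses no measured value, but the list was chosen with earlier results of these data known. Cells were grouped by marker genes and by cycle state, and the 10 genes were then compared between groups, mostly within each library. The gates held 23328 of 41122 kept cells, with 16673 cells in no gate and 1121 cells, which passed several gates, left out.

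Hematopoietic stem and progenitor cells of donor origin, marked by CD45.2, were sorted from mouse bone marrow 20 weeks after a competitive transplantation and taken for droplet sequencing of 3' ends. There were 2 Srcap heterozygous mutant samples and 2 wild-type samples, all of the strain C57BL/6 and none treated further. The labels do not say what the mutant allele is, how many animals a sample came from, nor which of the 4 barcode suffixes is which sample. The suffixes are therefore called library 1 to 4, and comparisons are made inside a library unless said to be over all libraries. Mutant against wild type is not analysed here.

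Hexokinase performs the first step, trapping glucose in the cell as glucose 6-phosphate, and its isoforms differ in place and control: Hk1 and Hk2 can sit on the outer mitochondrial membrane, while Hk3 lacks the segment that anchors them there. Hk2 is known as a hexokinase induced by hypoxia and growth signals, and Hk3 as an isoform of myeloid cells. Hematopoietic stem cells (HSC) are known for their reliance on glycolysis, which a transcription factor pair, Hif1a and Meis1, has been linked to.

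The libraries held 9511 to 13301 barcodes and 112027160 to 144385614 unique molecular identifiers (UMIs, which count captured RNA molecules). Kept cells had a median of 9824 to 10226.5 UMIs. Of the barcode sequences, 177 occurred in 2 libraries and 1 in 3 libraries. Some of the genes checked that no gate used followed the gate names. Prtn3 was at a median of 3279 CPM (UMIs scaled to the same total in each cell group) in early granulocyte progenitors and at most 474 CPM in any other gate. Cd79b was at 421 CPM in pro-B and pre-B cells and 1181 CPM in mature B cells. The beta globin gene Hbb-bt had a median of 149 CPM in the erythroid gate (range over libraries 8.65 to 571), against medians of at most 36.4 CPM in the other gates. Other checked genes were less clean. Sult1a1 had medians of 66.0 CPM in HSC and 61.9 CPM in conventional dendritic cells. H2-Ab1 had 9255 CPM in conventional dendritic cells, 2521 CPM in monocyte progenitors and 2102 CPM in mature B cells. Nkg7 had 1558 CPM in T, NK or innate lymphoid cells and 661 CPM in early granulocyte progenitors. No library could be set against its label, and over all kept cells Hk1 stood at 89.0 CPM in library 2 and at 70.1 to 73.0 CPM in the other libraries. Library 2 held the highest Hk1 level in 24 of the 34 pairs of gate and cycle state with at least 10 cells per library, and the highest Aldoa level in 0 of them.

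The hexokinases lie on different chromosomes of the mouse build GRCm38: Hk1 (ENSMUSG00000037012) at chr10:62268855-62379908, Hk2 (ENSMUSG00000000628) at chr6:82725025-82774454 and Hk3 (ENSMUSG00000025877) at chr13:55005985-55021385, all on the minus strand. The 250 bases before their starts are shown because the use of the hexokinase isoforms by lineage is the first comparison made below, and they are from RefSeq for the build GRCm38.p6, 5′ to 3′ on the gene's strand. Hk1 has 2 listed starts, of which the one with more CpG dinucleotides (14, against 1) is printed, and 3' counts cannot tell which start a molecule came from. Capitals mark matches on either strand to ACGTG, known as the core of hypoxia response elements, to AGGAAG, known from the ETS family, to TGTGGT, known from the RUNX family, and to ATTGG, known as the target of the factor NF-Y. The motif of the erythroid factor family that Gata1 belongs to, AGATAA, was also searched. No match overlapped another in the printed windows.
Hk1, chr10:62340422-62340671: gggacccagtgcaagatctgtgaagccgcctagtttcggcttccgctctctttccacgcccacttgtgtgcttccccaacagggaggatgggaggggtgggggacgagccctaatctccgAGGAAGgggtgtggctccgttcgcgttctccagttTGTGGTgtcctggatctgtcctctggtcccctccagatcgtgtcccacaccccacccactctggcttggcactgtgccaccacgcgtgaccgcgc
Hk2, chr6:82774455-82774704: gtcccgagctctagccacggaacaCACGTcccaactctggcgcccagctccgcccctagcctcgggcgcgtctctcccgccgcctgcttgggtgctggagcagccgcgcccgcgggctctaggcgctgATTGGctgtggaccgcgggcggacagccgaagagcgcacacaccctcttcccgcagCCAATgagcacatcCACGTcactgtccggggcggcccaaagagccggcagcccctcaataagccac
Hk3, chr13:55021386-55021635: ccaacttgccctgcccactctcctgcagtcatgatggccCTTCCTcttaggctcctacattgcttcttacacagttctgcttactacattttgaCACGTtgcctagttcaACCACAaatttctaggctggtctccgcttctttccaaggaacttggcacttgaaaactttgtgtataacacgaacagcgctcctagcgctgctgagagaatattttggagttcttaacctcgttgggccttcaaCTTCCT
The printed Hk1 window held 1 AGGAAG and 1 TGTGGT match, the Hk2 window 2 ACGTG and 2 ATTGG matches, and the Hk3 window 1 ACGTG, 2 AGGAAG and 1 TGTGGT match. The GC content was 62.8%, 69.6% and 47.2% in the Hk1, Hk2 and Hk3 windows. Of all 32851 promoter windows of the same length, 16.6% held ACGTG, 29.5% AGGAAG, 14.0% TGTGGT, 9.99% AGATAA and 33.8% ATTGG. Over all 16 listed starts of the 10 genes, ACGTG was found before 7 starts (6 genes), AGGAAG before 6 starts (6 genes), TGTGGT before 2 starts (2 genes), AGATAA before 0 and ATTGG before 6 starts (4 genes). A match describes these letters and is not a binding site.

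Use of the 3 hexokinases was given as each isoform's share of the Hk1, Hk2 and Hk3 UMIs of a gate, with 3' counting making 1 UMI 1 molecule whatever the gene's length. Erythroid progenitors used Hk1 almost alone. In G2/M cells, Hk1 made up 97.5%, 93.2%, 95.9% and 93.0% of the hexokinase UMIs of libraries 1 to 4 (811 UMIs in all). Hk1 itself stood at 126, 165, 173 and 141 CPM there, its highest level in any gate at G2/M. Megakaryocyte progenitors were the next most Hk1-rich, with 88.3%, 87.9%, 89.3% and 86.9% at G2/M. G2/M HSC followed closely, with 82.8%, 85.4%, 85.0% and 84.1%. In each of these gates the libraries lay within a few points of each other.

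Early granulocyte progenitors, cells with genes of the primary granules, held a different mix. Hk3 made up 36.1%, 37.5%, 41.4% and 38.9% of their hexokinase UMIs at G2/M, beside 46.9%, 47.4%, 39.0% and 38.4% Hk1. The median Hk3 share was 45.3% at rest (range 32.4% to 54.2%, on 138 UMIs) and 42.2% in S phase (on 2116 UMIs). The Hk3 share was 1.0% (median) in G2/M erythroid progenitors, 3.2% in G2/M megakaryocyte progenitors, 4.9% in G2/M pro-B and pre-B cells and 24.3% in G2/M lymphoid-primed progenitors. In the order of Hk3 levels at G2/M, early granulocyte, lymphoid-primed and Flt3 multipotent progenitors stood first, and megakaryocyte progenitors, pro-B and pre-B cells and erythroid progenitors last. The library ranges of neighbours in that order lay apart in 2 of 10 pairs.

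Among cell types and states with over 1000 hexokinase UMIs, Hk2 had its largest share in resting HSC, and smaller counts put it higher in myeloid cells. It made up 27.8%, 29.7%, 32.6% and 40.3% of the hexokinase UMIs of resting HSC, and 36.6%, 35.8%, 31.1% and 54.3% of those of resting conventional dendritic cells. By the median over libraries, no isoform held most of the UMIs of conventional dendritic cells, with of 26.5% for Hk1 and 31.2% for Hk3 over 275 UMIs. The Hk2 share in resting monocyte progenitors ranged over libraries between 28.6% and 75.0%, on 48 hexokinase UMIs in all, and that in S-phase pro-B and pre-B cells rests on 41 UMIs. Both are too few to place these cells in an order. Library 4 held the highest Hk2 share in both HSC and dendritic cells.

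**Figure D1:**
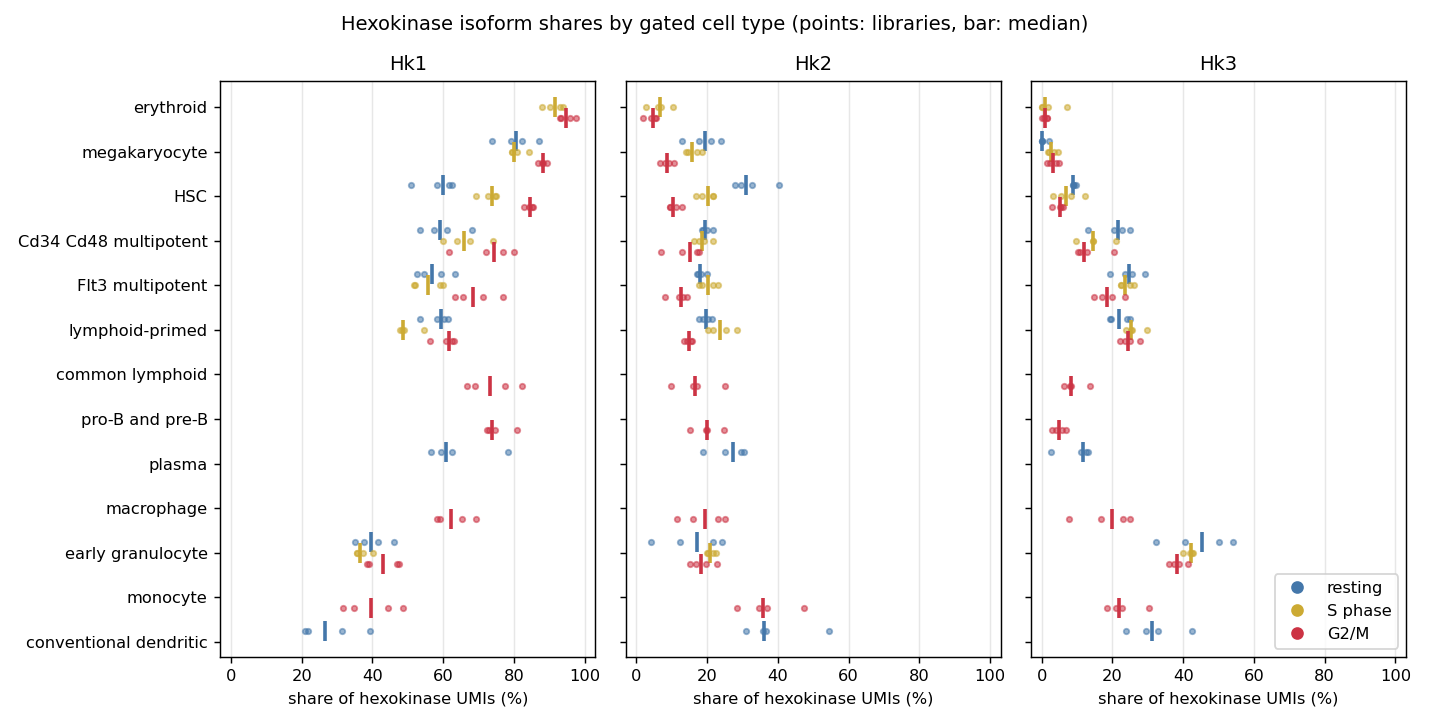
Share of the Hk1, Hk2 and Hk3 UMIs of a gated cell type that came from each isoform (percent, horizontal) by cell type (vertical) and cycle state (colour); points are libraries 1 to 4, bars their median, and only cell types and states with at least 100 hexokinase UMIs are drawn. The Hk1 share is above 85% in every library in G2/M erythroid and megakaryocyte progenitors, and the Hk3 share is highest in early granulocyte progenitors.

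The isoforms were also compared within single cells, taken over all libraries together. After each cell was thinned to 5000 UMIs, 28.0% of 311 G2/M early granulocyte progenitors with an Hk3 UMI also had an Hk1 UMI (exact 95% interval 23.1% to 33.3%), against 30.2% (27.2% to 33.3%) of 891 without Hk3. In resting HSC, 31.4% (27.9% to 35.2%) of 636 cells with Hk2 had Hk1, against 34.7% (32.9% to 36.6%) of 2577 without. Flt3 multipotent progenitors in S phase were the 1 case with intervals apart among the 30 pairs of isoforms, gates and states compared: 52.0% (40.2% to 63.7%) of 75 cells with Hk2 had Hk1, against 29.9% (26.2% to 33.8%) of 582 without. These intervals pool cells of mutant and wild-type libraries and cover counting error only. At this depth a cell without a UMI can still hold the RNA.

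The share of cells with an Hk3 UMI, at the same 5000 UMIs, was 25.9% (median, range 24.2% to 27.6%) in G2/M early granulocyte progenitors and 0.621% (0.351% to 0.935%) in G2/M pro-B and pre-B cells. Without thinning the shares were 65.4% and 2.11%, where the median depth was 20787.5 and 14817.5 UMIs. At 5000 UMIs the share in pro-B and pre-B cells was the lowest of the G2/M gates. Megakaryocyte progenitors, at 1.57%, and erythroid progenitors, at 1.67%, came next. How much of these shares free RNA gave was not tested. Hk1 was found in 53.8% (43.1% to 63.2%) of G2/M erythroid progenitors and in 11.4% (8.36% to 14.0%) of G2/M pro-B and pre-B cells.

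**Figure D2:**
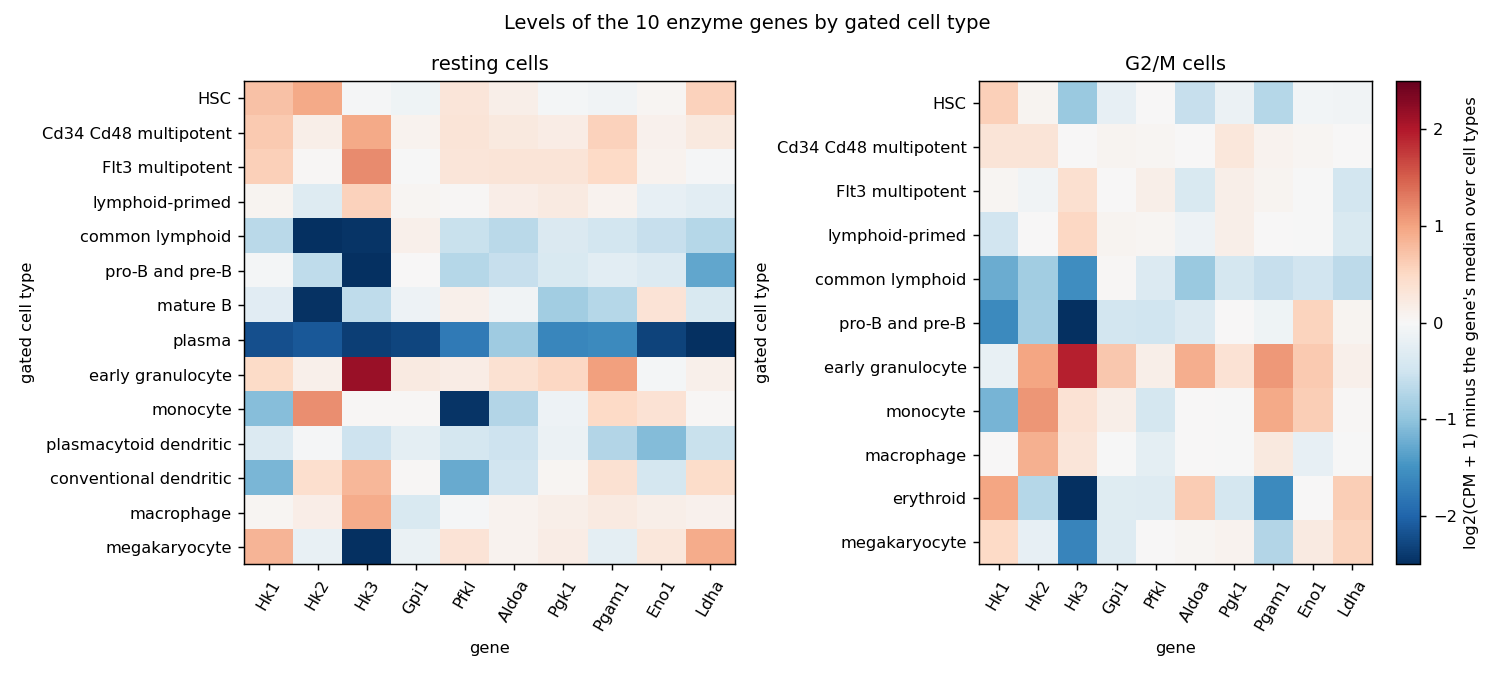
Level of each of the 10 genes (columns) in each gated cell type (rows), as log2(CPM + 1) of the median library minus that gene's median over the cell types shown, in resting cells (left) and G2/M cells (right); the colour scale ends at 2.5 either way and values past it are drawn at its end. Early granulocyte progenitors stand out for Hk3 and Pgam1, erythroid progenitors for low Hk3 and Pgam1, and resting plasma cells are low on this scale, which counts their immunoglobulin UMIs in the total.

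Summed over the 10 genes, early granulocyte progenitors had the highest median CPM at each cycle state, with 1895 CPM (range 1804 to 2035) at G2/M. This sum leaves out other enzymes of the pathway, such as Gapdh, Tpi1 and Pkm. At rest the range of early granulocyte progenitors (1386 to 1583 CPM) overlapped those of Cd34 Cd48 multipotent progenitors (1294 to 1417) and megakaryocyte progenitors (1246 to 1421). Other G2/M gates lay between 918 CPM in common lymphoid progenitors and 1483 CPM in monocyte progenitors. Resting plasma cells were lowest at 309 CPM (288 to 359), but 56.4% of their UMIs came from immunoglobulin genes. With those UMIs left out of the total the plasma sum was 708 CPM (691 to 799), still below resting HSC at 1276 CPM (1202 to 1332), on a scaling chosen after seeing the data. Aldoa was the exception among the 10 genes on that scale, with 280 CPM (272 to 290.0) in resting plasma cells and 247 CPM (225 to 263) in resting HSC, where on the total of all UMIs it had 121 CPM (115 to 130.4) in plasma cells. At G2/M the spread between cell types was widest for Hk3 and narrowest for Pfkl (ENSMUSG00000020277, chr10:77986947-78010083), the liver-type subunit of the phosphofructokinase that commits sugar to glycolysis. The highest gate was 42.8 times the lowest for Hk3, on a median of 1.47 CPM in erythroid progenitors, and 1.60 times for Pfkl.

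Of the other members, Gpi1 stood first in early granulocyte progenitors at G2/M, with a median of 355 CPM (range 322 to 405), and lay between 163 and 246 CPM in the other 10 gates. Pgk1 lay between 146 CPM (141 to 151) in erythroid progenitors and 255 CPM (248 to 261) in early granulocyte progenitors. Eno1 was spread between 53.0 CPM (50.3 to 77.8) in common lymphoid progenitors and 117 CPM (105 to 126) in early granulocyte progenitors, with monocyte progenitors and pro-B and pre-B cells overlapping the highest gate. In resting cells most neighbours in the order of levels overlapped: of 13 neighbouring pairs per gene, the ranges lay apart in 0 for Hk2 and Pfkl, in 1 for Hk1, Hk3, Gpi1, Aldoa and Eno1, in 2 for Pgk1 and in 3 for Pgam1 and Ldha.

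Resting HSC were set against resting multipotent progenitors, which carry Cd34, Cd48 and Kit and lack Flt3 and Dntt. Genes were called by size alone: the ratio of CPM plus 1 had to reach 1.5-fold, with 1 sign, in each of the 4 libraries. That scale understates the ratio of genes at few CPM, and no test stands behind a call. Hk2 was the 1 of 10 genes called, and it was higher in HSC. It stood at 39.4, 47.2, 44.5 and 64.6 CPM in resting HSC of libraries 1 to 4, against 25.6, 25.6, 26.4 and 24.4 CPM in resting multipotent progenitors, a median log2 ratio of 0.79 (range 0.60 to 1.37). The ranges did not overlap, although the multipotent values rest on 13 to 22 UMIs each and the exact Poisson interval of library 1 in HSC (33.9 to 45.5 CPM) overlaps that in multipotent progenitors (16.1 to 38.8 CPM). With cells thinned to 5000 UMIs and then gated anew, the median log2 ratio was 1.13 but 1 library lay at 0.15, so the call did not hold there. The groups of that setting are not the same cells as at full depth. With a pseudocount of 5 CPM the lowest library lay at 0.54 and with every cell weighted equally at 0.50, both under the rule.

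The other differences of resting HSC stayed under the rule. Pgam1 (ENSMUSG00000011752, chr19:41911923-41918660), which moves the phosphate of phosphoglycerate, had a median of 105 CPM (range 96.8 to 111) in resting HSC and 168 CPM (165 to 182) in resting multipotent progenitors, a log2 ratio of -0.66. Hk3 had 13.9 CPM (12.4 to 14.1) in resting HSC and 28.5 CPM (17.7 to 29.1) in resting multipotent progenitors. Ldha, at chr7:46841475-46855627, had 318 CPM (267 to 373) in HSC and 253 CPM (209 to 265) in multipotent progenitors. Each of these 3 pointed the same way in 4 of 4 libraries. Over all genes tested, 4.54% were called higher and 2.63% lower in resting HSC, and 1 of 10 genes is close to that share. The median log2 ratio of the 10 genes was -0.14, against -0.01 for all genes. It was -0.045 with 1 more marker per gate and -0.062 for genes at 20 CPM or more.

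In S phase 0 of 10 genes were called, Hk2 included, where 2.4% of all genes were higher and 0.832% lower. Hk2 had 29.3 CPM (19.2 to 33.0) in S-phase HSC and 26.3 CPM (24.7 to 30.5) in S-phase multipotent progenitors. At G2/M, Hk3 and Pgam1 were called lower in HSC, 2 of 10 genes, where 2.84% of all genes were higher and 0.694% lower. Pgam1 had a median of 104 CPM in G2/M HSC, with 115 CPM in the highest library, against 184, 180, 176 and 191 CPM in G2/M multipotent progenitors. All HSC libraries lay below all multipotent libraries.

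Of the 45 other genes of the pathway on a list, 31 passed the level filter in resting cells, and 1 was called higher and 2 lower in HSC. The 2 lower, named after their values were seen, were Fbp1, a gluconeogenesis enzyme, and Egln3, a prolyl hydroxylase that acts on hypoxia-inducible factors, with log2 ratios of -1.14 and -1.95. The 1 higher was Ldhb, the lactate dehydrogenase subunit known to favour lactate oxidation, with 95.9 CPM (90.1 to 98.0) in resting HSC and 44.6 CPM (35.5 to 54.4) in resting multipotent progenitors. Ldhb was also called higher in HSC in S phase (median log2 ratio 0.88) and at G2/M (1.05).

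The Hk2 level rose between 2 and 4 HSC markers, with little change below or above. These are also the limits that set the multipotent and HSC gates, so the rise overlaps with the comparison of those gates. Among resting cells in no lineage gate and thinned to 5000 UMIs, Hk2 had a median of 27.7, 23.7 and 27.6 CPM in cells with 0, 1 and 2 of the 8 HSC markers. It then stood at 35.0 CPM with 3 markers, 48.7 CPM with 4 and 50.1 CPM with 5 or more. Pgam1 ran the other way, with 157, 154, 138, 124, 113 and 90.8 CPM over the same 6 steps, and Hk3 stood at 26.4 CPM with 2 markers and 13.5 CPM with 5 or more. Ldha moved less, with 249 CPM at 2 markers and 300 CPM at 5 or more. The markers were counted in the same cells, so the steps describe these cells and are not independent samples.

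**Figure D3:**
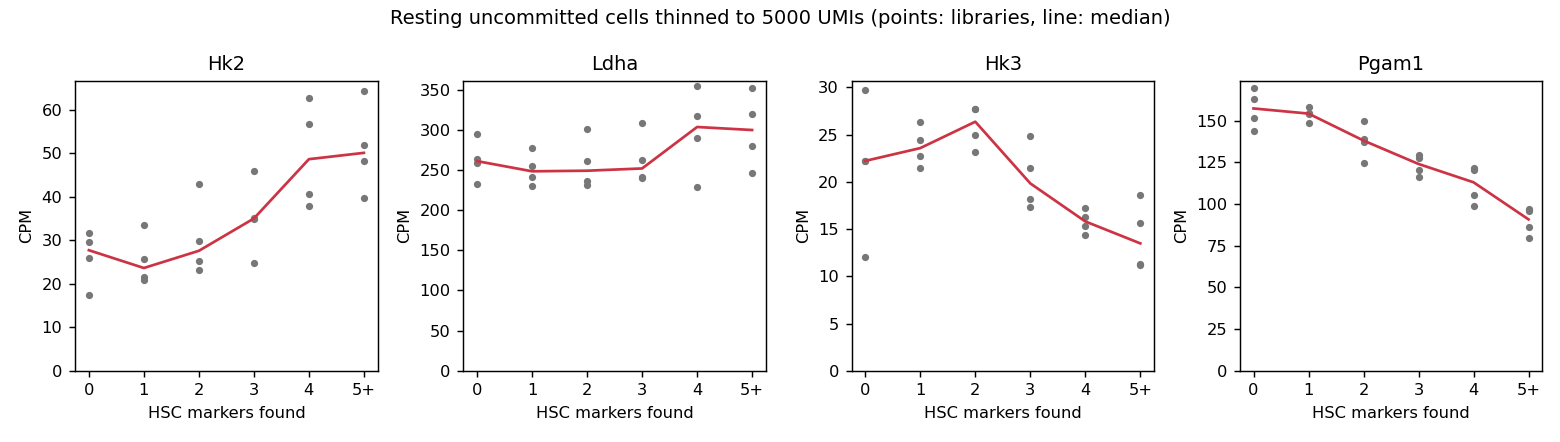
Levels of Hk2, Ldha, Hk3 and Pgam1 (CPM, vertical) in resting cells outside the lineage gates, thinned to 5000 UMIs, by how many of 8 HSC markers had a UMI (horizontal); points are libraries 1 to 4 and the line is their median. Hk2 is at 23.7 to 27.7 CPM up to 2 markers and at 50.1 CPM with 5 or more, and Pgam1 stands at 157 CPM with 0 markers and 90.8 CPM with 5 or more.

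Resting HSC with a UMI of Vwf, a marker of platelet-biased stem cells, were set against resting HSC without. Hk2 ranged between 44.5 and 77.1 CPM in Vwf HSC and between 37.2 and 53.3 CPM in the others, a median log2 ratio of 0.26. Ldha had a log2 ratio of 0.25 and Hk3 of -0.54, each of 1 sign in 4 of 4 libraries and below 1.5-fold in the median.

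Early granulocyte progenitors were compared with lymphoid-primed progenitors, which carry Dntt and Flt3, at each cycle state. Hk3 and Pgam1 were higher in early granulocyte progenitors in all 3 states. At G2/M, Hk3 stood at 56.6, 66.7, 62.8 and 62.7 CPM in early granulocyte progenitors, against 20.1, 23.8, 21.9 and 24.3 CPM in lymphoid-primed progenitors, a median log2 ratio of 1.45 (range 1.33 to 1.48). Pgam1 stood at 322, 358, 385 and 374 CPM in early granulocyte progenitors, against 168, 173, 193 and 170 CPM in lymphoid-primed progenitors, a median log2 ratio of 1.02. For both genes every early granulocyte library lay far above every lymphoid-primed library, on 162 to 2891 UMIs each.

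Hk2 and Aldoa (ENSMUSG00000030695, chr7:126795234-126800751), the enzyme that cleaves the 6-carbon sugar, joined them at G2/M. Aldoa had 221, 222, 249 and 285 CPM in G2/M early granulocyte progenitors, against 118, 110, 127 and 109 CPM in G2/M lymphoid-primed progenitors (log2 ratio 0.99). Hk2 had 26.7, 26.8, 29.7 and 36.5 CPM in early granulocyte progenitors and 14.0, 13.6, 12.4 and 13.8 CPM in lymphoid-primed progenitors (log2 ratio 1.06). Without the highest 8% of UMI counts the lowest library of Hk2 lay at 0.55, under the rule. In S phase, Gpi1 (ENSMUSG00000036427, chr7:34201330-34230336), which turns glucose 6-phosphate into fructose 6-phosphate, and Eno1 (ENSMUSG00000063524, chr4:150236721-150248879), which makes phosphoenolpyruvate, were called beside Hk3 and Pgam1, with log2 ratios of 0.67 and 0.73. Eno1, Ldha, Pgk1 and Pgam1 have processed pseudogenes in the mouse genome, so their counts may be split.

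Counts over the list were 2, 4 and 4 of 10 genes higher at rest, in S phase and at G2/M, and 0 lower in each. Over all genes tested the shares higher were 0.986%, 3.16% and 2.81%, and the shares lower 2.05%, 3.92% and 3.11%. The median log2 ratio of the 10 genes was 0.36 at rest, 0.55 in S phase and 0.62 at G2/M, against -0.06, -0.09 and -0.07 for all genes. For the other pathway genes tested it was lower than for the 10 genes, at -0.03, 0.12 and 0.19. At G2/M the median of the 10 genes was 0.96 with 1 more marker per gate and 0.99 at a mitochondrial limit of 5%. Hk1, Pfkl, Pgk1 and Ldha were called in none of the 3 states. The resting early granulocyte cells number 14 per library or more, 95 in all. With 1 more marker required per gate, Gpi1 and Eno1 also passed at G2/M, with log2 ratios of 0.88 and 1.04. Of the other pathway genes, 2 of 28 were called higher and 0 lower at G2/M: Pgd of the pentose phosphate branch, with 84.9 CPM (77.2 to 96.7) in early granulocyte progenitors and 36.5 CPM (34.7 to 42.4) in lymphoid-primed progenitors, and the platelet-type phosphofructokinase Pfkp, named after its values were seen.

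Erythroid progenitors were set against multipotent progenitors at S phase and G2/M, where enough cells were found. Pgam1 and Hk3 were lower in erythroid progenitors at both states. At G2/M, Pgam1 stood at 46.9, 54.6, 58.1 and 59.8 CPM in erythroid progenitors, against 184, 180, 176 and 191 CPM in multipotent progenitors, a median log2 ratio of -1.68 (range -1.95 to -1.59). Pgk1 (ENSMUSG00000062070, chrX:106187100-106203699), the first enzyme of the pathway to yield ATP, stood at 143, 141, 148 and 151 CPM in erythroid progenitors and 250, 213, 242 and 240 CPM in multipotent progenitors. Neither gene's ranges overlapped between the groups. The Pgk1 call was marginal: without the highest 8% of UMI counts its log2 ratio was -0.50, against -0.69 in all cells.

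Hk3 was near the limit of counting in erythroid progenitors, with 8 UMIs in 211 G2/M cells, against 90 UMIs in 404 G2/M multipotent progenitors. Over all libraries that is a ratio of 0.101 (exact 95% counting interval 0.0422 to 0.207). With cells thinned to 5000 UMIs and gated anew, the log2 ratio of Hk3 had a median of -2.82. It lay at -0.05 in 1 library, so the call did not hold there. Hk1 had 153 CPM (126 to 173) in erythroid progenitors and 96.7 CPM (59.6 to 109) in multipotent progenitors, and Ldha had 512 CPM (463 to 548) in erythroid progenitors and 333 CPM (311 to 375) in multipotent progenitors. Both had higher values in 4 of 4 libraries but stayed under 1.5-fold in at least 1. Aldoa, lower at G2/M in most gates as described below, had 194 CPM (177 to 205) in G2/M erythroid progenitors and 125 CPM (107 to 145) in G2/M multipotent progenitors.

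Of the 10 genes 3 were called lower at each state, Hk3 and Pgam1 in both, Hk2 in S phase and Pgk1 at G2/M, and 0 higher. Hk3 passed the level filter of 5 CPM only through multipotent progenitors, with medians of 20.3 CPM in S phase and 15.6 CPM at G2/M. Its erythroid medians were 1.19 and 1.47 CPM, so the Hk3 calls are not used as support. Over all genes 8% were lower and 3.83% higher in S phase, and 11% were lower and 5.27% higher at G2/M. Of 28 other pathway genes at G2/M, 7 were lower and 4 higher. Pkm, the pyruvate kinase of most tissues, had 62.7 CPM (47.5 to 64.0) in erythroid progenitors and 317 CPM (304 to 341) in multipotent progenitors, a log2 ratio of -2.38. Pklr, the pyruvate kinase known from liver and red cells and named after its values were seen, had 33.7 CPM (18.3 to 35.6) in erythroid progenitors and 0 UMIs in multipotent progenitors of all 4 libraries. The lactate and pyruvate carrier gene Slc16a1 was higher in erythroid progenitors, at 57.4 CPM (54.1 to 64.0) against 21.9 CPM (17.0 to 23.8) in multipotent progenitors.

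Megakaryocyte progenitors were set against HSC. Over all libraries, Hk3 had 1 UMI in 180 resting megakaryocyte progenitors, against 364 UMIs in 3347 resting HSC, a ratio of 0.0377 (exact 95% counting interval 0.000951 to 0.211). In S phase, also over all libraries, it had 50 UMIs in 802 megakaryocyte progenitors and 44 UMIs in 340 HSC, a ratio of 0.379 (0.248 to 0.582). Hk3 was the 1 of 10 genes called lower at rest and in S phase, and 0 were higher. It passed the level filter of 5 CPM only through HSC, with medians of 13.9 CPM at rest and 8.92 CPM in S phase. The medians in megakaryocyte progenitors were 0 and 3.56 CPM, so these calls are not used as support. The shares of all genes were 2.51% lower and 1.25% higher at rest, and 2.14% lower and 1.12% higher in S phase. At G2/M 0 of 10 genes were called, where 2.12% of all genes were lower and 0.9% higher, and Hk3 had a median log2 ratio of -0.34 (range -1.75 to -0.21).

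Hk2 pointed the same way at rest, with 14.6, 19.2, 30.4 and 21.4 CPM in megakaryocyte progenitors, against 39.4, 47.2, 44.5 and 64.6 CPM in HSC. The ranges do not overlap, but library 3 was under 1.5-fold and the megakaryocyte values rest on 6 to 17 UMIs. Ldha did not pass the rule but had higher values in megakaryocyte progenitors in 4 of 4 libraries, with 402, 351, 412 and 463 CPM at rest and a log2 ratio of 0.35. Its S-phase level in megakaryocyte progenitors, 620, 578, 685 and 726 CPM, was the highest of the 9 gates measured in S phase. The partner subunit Ldhb was called lower, with 52.0 CPM (37.5 to 58.0) in resting megakaryocyte progenitors and 95.9 CPM (90.1 to 98.0) in resting HSC, the 1 of 30 other pathway genes called at rest. The comparisons with HSC and those of HSC with multipotent progenitors share the HSC cells.

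**Figure D4:**
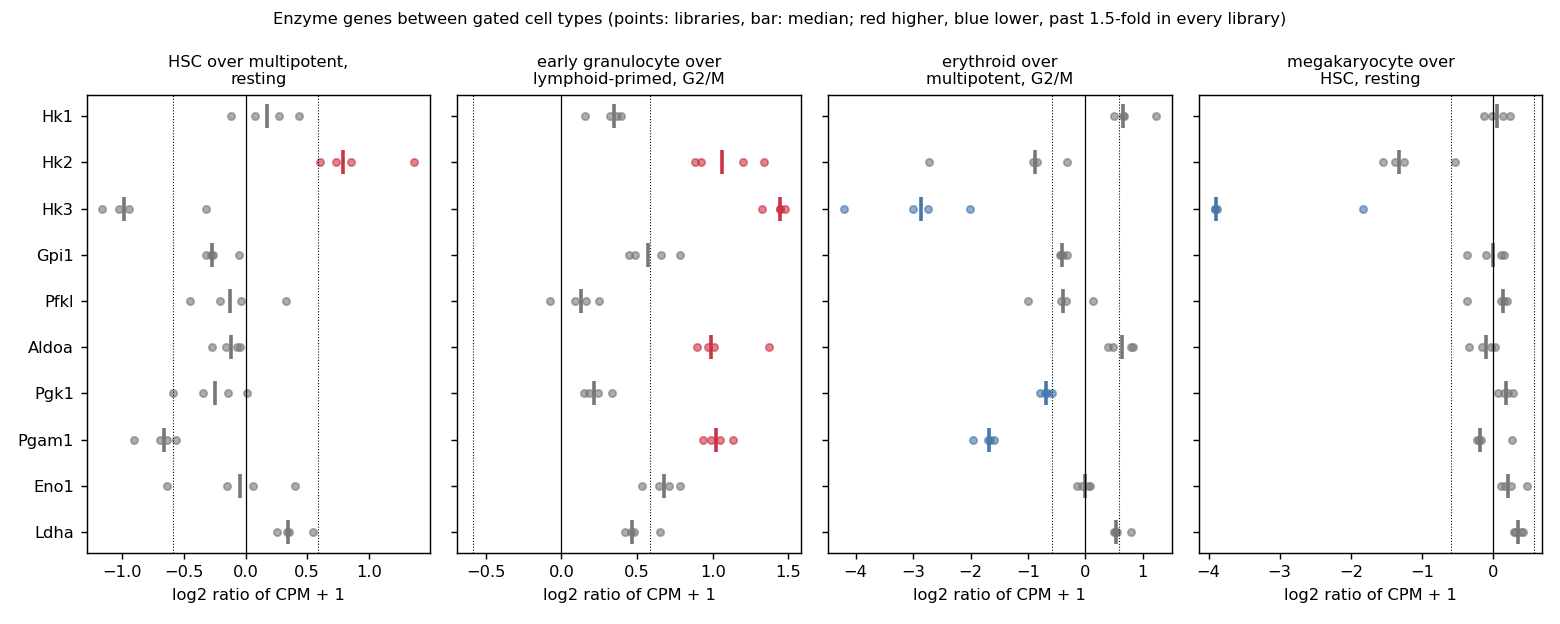
Log2 ratio of CPM + 1 (horizontal) of each of the 10 genes (vertical) between gated cell types, with the cell type named first on top of the ratio; points are libraries 1 to 4, bars their median, dotted lines mark 1.5-fold, and red or blue marks genes past it in 4 of 4 libraries. Early granulocyte progenitors lie above 0 in most genes at G2/M, and Pgam1 lies below -1.5 in every library of G2/M erythroid progenitors.

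Mature B cells were set against pro-B and pre-B cells at rest, where both groups were small (18 cells or more per library). None of the 10 genes was called, with 4.02% of all genes higher and 6.82% lower. Ldha had 165 CPM (157 to 228) in mature B cells and 86.5 CPM (57.4 to 121) in pro-B and pre-B cells, higher in 4 of 4 libraries with a log2 ratio of 1.12 and a lowest ratio of 0.48. Mature B cells had a median of 2375 UMIs per cell, the fewest of any gate, and their hexokinase UMIs numbered 26 in all, which cannot show a difference in isoform use.

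Between cycle states, single steps of the pathway differed in opposite directions. Aldoa was lower in G2/M cells than in resting cells in 4 of 4 libraries of all 7 gates compared, and it passed the rule in 6 of them. In HSC it stood at 238, 225, 263 and 255 CPM in resting cells, 217, 196, 229 and 235 CPM in S phase and 83.3, 66.2, 112 and 82.9 CPM at G2/M. The resting and S-phase levels lay close together and the G2/M levels far below both. The median log2 ratio of G2/M over resting cells was -1.56 in HSC, -1.38 in Flt3 multipotent progenitors, -1.13 in Cd34 Cd48 multipotent progenitors, -1.10 in common lymphoid, -1.04 in lymphoid-primed and -0.76 in megakaryocyte progenitors. Early granulocyte progenitors were the exception, with a ratio of -0.19 and 236 CPM (221 to 285) at G2/M.

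Hk2 was also lower at G2/M in some gates. In HSC it had 39.4, 47.2, 44.5 and 64.6 CPM at rest, a median of 29.3 CPM (19.2 to 33.0) in S phase and 14.4, 14.4, 14.2 and 15.5 CPM at G2/M, on 14 to 35 UMIs per library. The G2/M over resting ratio was -1.62, against -0.80 in Flt3 multipotent and -0.72 in megakaryocyte progenitors, the other gates where it was called. Hk1 had higher values at G2/M in 4 of 4 libraries, with 117 CPM (101 to 130) in G2/M HSC and 85.1 CPM (79.7 to 97.8) in resting HSC, so its share of hexokinase UMIs in HSC was 84.6% at G2/M, against 59.9% at rest. A test of the difference between gates was not run.

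Ldha and Pgk1 were higher in S phase. Ldha, the subunit that makes lactate from pyruvate, was higher in S-phase than in resting cells in 4 of 4 libraries of all 7 gates and passed the rule in 6, all but early granulocyte progenitors. In lymphoid-primed progenitors it stood at 154, 169, 187 and 187 CPM in resting cells and 324, 339, 352 and 362 CPM in S phase, a log2 ratio of 0.98 of S phase over rest. At G2/M the median was 255 CPM, between the levels of the other states. In HSC the S-phase call was marginal, with a log2 ratio of 0.63 over all cells. The ratio was 0.36 in cells thinned to 5000 UMIs and gated anew, where 1 library had no difference. In Cd34 Cd48 multipotent progenitors thinned in the same way the lowest library of Ldha lay at 0.36, under the rule. Pgk1 was higher in 4 of 4 libraries of all 7 gates in both S phase and G2/M, with ratios of 0.49 to 0.80 in S phase, and passed the rule in S phase in HSC and common lymphoid progenitors. In thinned HSC the lowest library of Pgk1 lay at 0.03. Pgam1 passed it in S phase in 3 gates and Hk2 in 1, common lymphoid progenitors. Hk2 had a resting level of 2.59 CPM there and passed the level filter of 5 CPM only through S phase. Hk1, Hk3, Gpi1, Pfkl, Eno1 and Aldoa passed it in no gate in S phase.

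The called counts in S phase were 1 of 10 genes higher in Cd34 Cd48 multipotent progenitors, 2 in HSC, 2 in lymphoid-primed, 1 in Flt3 multipotent, 1 of 9 in megakaryocyte, 1 of 10 in early granulocyte and 4 of 9 in common lymphoid progenitors. The shares of all genes higher were 4.72%, 6.55%, 6.7%, 5.16%, 4.48%, 5.42% and 3.22% in the same order. In HSC 3.49% of all genes were lower in S phase and 9.36% higher at G2/M. At G2/M, 1, 2, 1, 2, 2, 0 and 1 genes were lower in these 7 gates, where 3.39%, 5.41%, 5.56%, 3.86%, 3.04%, 3.11% and 2.99% of all genes were. The S-phase and G2/M comparisons of a gate share its resting cells. Tpi1, triose phosphate isomerase, works right after aldolase: in HSC it had 327 CPM (300 to 343) in S phase and 168 CPM (167 to 178) at rest. It was the 1 of 31 other pathway genes called higher in S-phase HSC, and 0 were lower.

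Median UMIs per cell differ between cycle states, for example 7665 in resting HSC and 15359 in G2/M HSC. CPM divides by that total, so these ratios compare shares of RNA and not molecules per cell. In HSC and Cd34 Cd48 multipotent progenitors thinned to 5000 UMIs and gated anew, the median ratios of Aldoa, Pgk1, Ldha and Hk2 that were recomputed kept their sign.

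**Figure D5:**
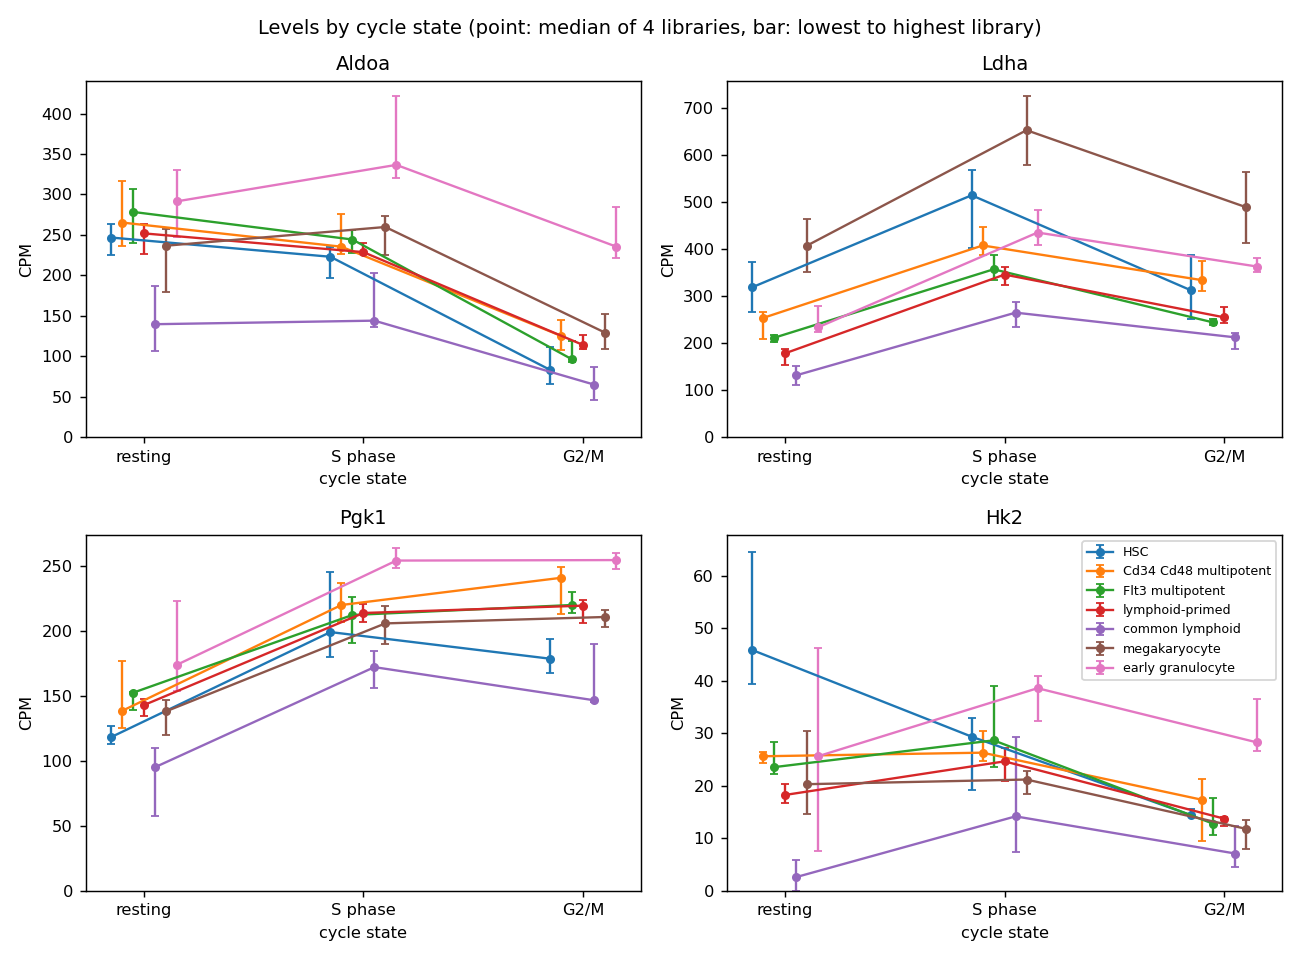
Levels of Aldoa, Ldha, Pgk1 and Hk2 (CPM, vertical, starting at 0) in resting, S-phase and G2/M cells (horizontal) of 7 gated cell types; points are the median of libraries 1 to 4 and bars run from the lowest to the highest library. Aldoa is low at G2/M except in early granulocyte progenitors, Ldha peaks in S phase, and Hk2 is highest in resting HSC.

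The genes most like each hexokinase in pattern were ranked among 8441 genes by Pearson correlation of log2(CPM + 1) over 16 gated cell types, each the median of the same 4 libraries. For Hk1 they were Vamp5 (r = 0.97), Frrs1 (0.96) and Gstm5 (0.96). For Hk2 they were Mctp1 (0.92), Avpi1 (0.92) and Pak1 (0.91), and for Hk3 Myl12b (0.86), Prtn3 (0.82) and Lst1 (0.81). Prtn3 is a granule protease gene on the marker list of early granulocyte progenitors, where it was too widespread to be counted. Among the members themselves, Hk1 was closest to Pfkl (0.83) and Aldoa (0.76), and Hk3 to Pgam1 (0.73). These are descriptions over cell types that share libraries and depth, and they carry no test.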

How the data were processed

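The authors deposited raw UMI counts, whole numbers, in a single matrix of genes by cells. The matrix names Cell Ranger 6.1.2 in its header, per the file headers, and the submitters' processing notes name the build mm10. Whether intronic or multimapping reads were counted is not given in the sources used here.

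A barcode was kept with 500 or more genes found and mitochondrial UMIs of 10% or less, which left 41122 of 44151. No doublet caller was run; cells passing several lineage gates were left out. A lineage gate needed 3 markers found, or 4 where 7 or more were counted, without markers found in over 30% of cells. HSC needed 4 of 8 markers and no UMI of Cd48, Flt3 or Dntt (2304 of 4476 had just 4), and multipotent progenitors at most 2. Multipotent progenitors also had to be at least 2 markers short of every lineage gate. This was not asked of HSC or lymphoid-primed progenitors, so these groups differ in that exclusion. Per 10000 UMIs, cells with under 10 S-phase and under 20 G2/M UMIs were resting, those with 40 or more G2/M UMIs at G2/M, and of the rest those with 20 or more S-phase UMIs in S phase. These limits were set after seeing the data, and the members and lists were chosen with earlier results of these data known.

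UMIs were summed per library, gate and state, with 10 cells or more in each library, and scaled to CPM. Ratios used a pseudocount of 1 CPM and genes at 5 CPM or more averaged over both sides. Levels are given per library or as median and range, with exact Poisson or Clopper-Pearson 95% intervals, which cover counting error only. No p-value was computed: mutant and wild-type libraries cannot be told apart by the labels, so the 4 libraries were not treated as replicates of 1 group. Ratios between gates and states are paired within each library, except the Hk3 ratios with counting intervals, which pool the libraries. A test over the 4 paired ratios was not run. Other pathway genes named here were called with 50 CPM on the higher side, apart from those said to be named after their values were seen. The rule allowed at most 6 per comparison, and not every gene it picked is described. Among those left out were Meis1 and Pgm2 in erythroid progenitors, Pdk1 and Gapdh in several comparisons, and Tpi1 in other gates and at G2/M. Aldoa has 2 identifiers, of which the one with 100956 UMIs was used and the one with 57 was not. Neutrophil precursors (12 cells) were not compared. The calling rule was tested on simulated counts with counting error alone and changes well past 1.5-fold. That test cannot show how calls near the limit behave. Python 3.11.15, numpy 2.4.6, scipy 1.17.1, pandas 2.3.3 and matplotlib 3.10.9 were used.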

Additional observations from a re-analysis of the deposited data

Results flagged for a closer look

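In 7 cases a gene had a ratio to resting cells above 0 in 4 of 4 libraries of 1 gate and below 0 in 4 of 4 libraries of another. The difference between gates was not tested in any of them, and single libraries were not screened for extreme values because they belong to no group.

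For S phase over rest, Hk2 had a median log2 ratio of 1.83 in common lymphoid progenitors, on a resting level of 2.59 CPM, and -0.83 in HSC, a difference of 2.66. Hk1 had 0.58 in common lymphoid progenitors and -1.41 in pro-B and pre-B cells, a difference of 2.00. In pro-B and pre-B cells the 3 hexokinases together had just 39 UMIs at rest and 41 in S phase. Gpi1 had 0.56 in early granulocyte and -0.03 in lymphoid-primed progenitors, a difference of 0.58. Aldoa had 0.27 in early granulocyte progenitors and -0.17 in HSC, a difference of 0.44.

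For G2/M over rest, Hk2 had 1.298 in common lymphoid progenitors and -1.62 in HSC, a difference of 2.91. Pfkl had 2.11 in monocyte progenitors, where its resting level was 7.43 CPM (0 to 19.7), and -0.31 in HSC, a difference of 2.42. Gpi1 had 0.39 in early granulocyte progenitors and -0.51 in pro-B and pre-B cells, a difference of 0.90.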

How the results depend on the processing

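No paired analysis was possible because no label ties the 4 libraries to the replicate numbers of the mutant and wild-type samples; this concerns mutant against wild type, whose edgeR and DESeq2 fits were not run. Apart from the pooled Hk3 ratios with counting intervals, the ratios between gates are paired within each library. No test over the 4 libraries was run. Of 493 values under 11 alternative settings, 402 stayed within the standard deviation between libraries, 91 moved beyond it and 0 changed sign where called. For 32 of the gene ratios, these settings and the values that left out a library gave 402 values together, and all kept their direction. Where every library of a ratio had the same sign, neither leaving out a library nor a larger pseudocount could change it. Part of this count was therefore fixed in advance, and that part is no test of robustness. Some settings left under 10 cells in a library of a gate and then gave no value.

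The median log2 ratio of the 10 genes moved as follows. For resting HSC over multipotent progenitors it was -0.14, with -0.045 at 1 more marker per gate and -0.062 for genes at 20 CPM or more. For G2/M early granulocyte over lymphoid-primed progenitors it was 0.62, with 0.96 at 1 more marker, 0.97 in thinned cells and 0.99 at a mitochondrial limit of 5%. For G2/M erythroid over multipotent progenitors it was -0.38, with -0.14 at 20 CPM. For S phase over rest it was 0.18 in multipotent progenitors, with 0.32 at 1 more marker and 0.28 in thinned cells, and 0.33 in HSC, with 0.028 in thinned cells. For G2/M over rest in HSC it was -0.10, with -0.20 in thinned cells and -0.27 when hemoglobin, immunoglobulin and ribosomal protein genes were left out of the total. The Hk1 share in G2/M megakaryocyte progenitors was 88.1%, with 91.0% in thinned cells, 89.8% without the highest 8% of UMI counts and 89.2% as a mean of per-cell shares. The Hk3 share in G2/M early granulocyte progenitors was 38.2%, with 43.9% at 1 more marker, 45.7% in thinned cells and 44.0% at the 5% limit. The causes were not tested.

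Leaving out 1 library gave 228 values, all within the standard deviation between libraries. With medians of so few libraries no other outcome was possible, so this count shows no robustness. The early granulocyte median at G2/M then lay between 0.57 and 0.68, the Hk1 share of erythroid progenitors between 93.2% and 95.9%, and the Hk2 share of resting HSC between 29.7% and 32.6%. Thin counts limit Hk2 in resting multipotent progenitors and Hk3 in erythroid and megakaryocyte progenitors.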
